A study of Homo sapiens with 8 samples.

Results

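A group of 8 genes that shape transcription in the prostate luminal lineage was followed through 24 h of exposure to asporin (ASPN), a protein secreted into the extracellular matrix. They were the lineage transcription factors FOXA1, HOXB13, GATA2 and GRHL2, the ETS family factors ETV1 and SPDEF, and the nuclear receptor cofactors NCOA2 and NCOR1. They were chosen by name, as factors and cofactors of androgen receptor signaling, and make up 8 of the 36474 genes in the count table. All 8 passed the filter on low counts, and so did 21071 genes in all. The cells were LNCaP, an established line from a human prostate carcinoma metastasis, and every group consisted of these cells alone, with no genetic change labelled. Before treatment, wells were kept for 6 to 12 h without serum or calcium. RNA was then taken at 0 h (2 libraries), after 12 h (3 libraries) or after 24 h (3 libraries) with recombinant ASPN at 100 ng/mL. No library kept without ASPN for 12 or 24 h was analysed here, so ASPN and time in the starvation medium cannot be told apart. One 0 h library carries the replicate number 1. The other has a column number that no 0 h label shares, and it is called the unnumbered 0 h library.

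The androgen receptor is a hormone-activated transcription factor that works on chromatin opened or marked by other factors. FOXA1 is a pioneer factor that binds compacted chromatin, GATA2 acts with it at androgen-responsive enhancers, and HOXB13 marks posterior prostate identity and steers receptor binding. GRHL2 maintains epithelial genes, and SPDEF is an ETS factor of luminal and secretory epithelium. ETV1 is an ETS factor of the PEA3 subfamily that becomes an oncogene in part of prostate cancers through rearrangement. In LNCaP cells the ETV1 locus is known to be inserted in MIPOL1, a neighbor of FOXA1. NCOA2 belongs to the p160 coactivators, which recruit histone acetyltransferases to ligand-bound receptors, whereas NCOR1 is the scaffold of a corepressor complex that carries histone deacetylase activity.

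The libraries held 73406825 to 96962135 counts, and each of the 8 genes drew between 6157 counts (SPDEF in a 24 h library) and 52567 counts (FOXA1 in a 24 h library). Of 9 luminal prostate markers, all were in the table, with summed levels of 4599 to 4612 CPM at 0 h, 4902 to 4972 CPM at 12 h and 4948 to 5107 CPM at 24 h. CPM here is the read count scaled to library size by the TMM method. Basal markers summed to at most 0.248 CPM in any library. Neuroendocrine markers summed to 1.79 to 2.86 CPM, almost all of it SYP, and leukocyte markers to 0.0648 to 0.344 CPM. Fibroblast markers summed to 21.2 to 23.8 CPM, mostly COL1A1, and endothelial markers to 11.2 to 17.3 CPM, mostly VWF, while PECAM1 and CDH5 each reached at most 0.0572 CPM. Of the listed markers, 4 of 5 basal, 3 of 5 neuroendocrine and 5 of 6 fibroblast genes were in the table, and their sums cover these alone. The luminal label therefore held for the line at the level of its summed markers, but not for each marker. The luminal keratin KRT19 had means of 1.00, 1.14 and 0.887 CPM at 0, 12 and 24 h, below those of VWF. In bulk RNA, fewer cells with a transcript and less of it per cell cannot be told apart.

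Per exon length, in TPM (counts scaled by exon length and library size) averaged over all 8 libraries, HOXB13 was the most abundant of the genes at 537 TPM (458 to 567) and FOXA1 followed at 420 TPM (398 to 436). GATA2 had 195 TPM (160 to 212) and SPDEF 162 TPM (140 to 179). The ranges of these last 2 genes overlapped across libraries, although GATA2 was the higher in each of the 8 libraries. ETV1 stood at 111 TPM (101 to 128), GRHL2 at 56.6 TPM (55.3 to 59.4), NCOR1 at 47.3 TPM (43.2 to 51.3) and NCOA2 at 33.3 TPM (31.2 to 35.8). All other neighbors in this order had ranges that did not overlap. The lineage factors HOXB13 and FOXA1 thus stood at the top of this order and the cofactors at its end. The exon lengths came from GENCODE release 44.

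**Figure D1:**
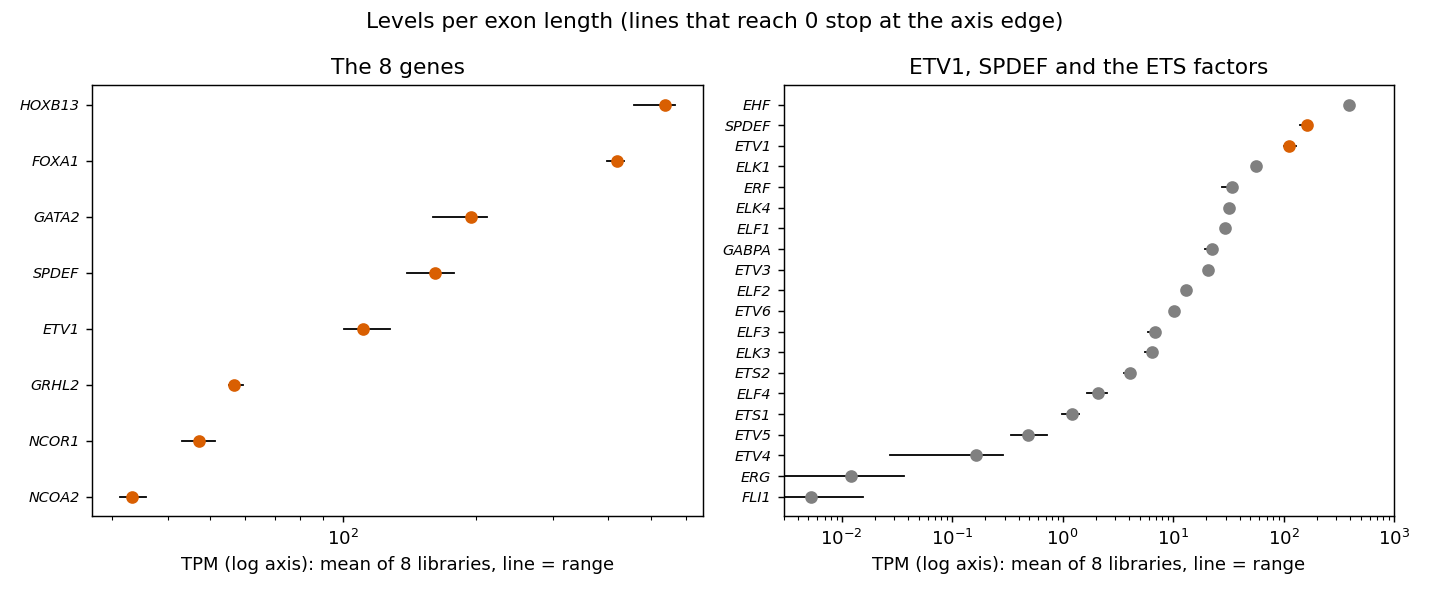
Level of each gene per exon length in TPM on a log axis, as the mean over 8 libraries (points) with the range (lines). The left panel shows the 8 genes, from HOXB13 at 537 TPM to NCOA2 at 33.3 TPM, and the right panel places ETV1 and SPDEF (colored) among 18 other ETS factors (gray), where EHF alone was higher, at 388 TPM.

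The first question was which of these genes differed from 0 h after 12 h with ASPN. GATA2, SPDEF and HOXB13 rose and ETV1 fell, by 1.14-fold to 1.24-fold upward and 14.0% downward, whereas FOXA1, GRHL2, NCOA2 and NCOR1 did not pass the test. The test was edgeR's quasi-likelihood F test over all 21071 genes with Benjamini-Hochberg adjustment. A gene passed at an adjusted p of at most 0.05. With 3 of 8 genes higher and 1 of 8 lower, the shares in all tested genes were 4.85% higher and 6.75% lower. The 8 genes are abundant, at TPM percentiles 88.1 (NCOA2) to 99.5 (HOXB13) of the genes in the count table. Shares of all genes, here and below, are not matched for level. At a fold of at least 1.5, the limit the study used, none of the 8 passed at 12 h, where 1.05% of all genes did. The libraries of the groups did not overlap for 4 of the 8 genes, against 36.9% of all genes, so this separation was common in the table as a whole. The median log2 change was 0.0083 over the 8 genes and -0.00069 over all genes tested.

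The second question was the same at 24 h. GATA2 and HOXB13 rose, ETV1 and NCOR1 fell, and FOXA1, GRHL2, NCOA2 and SPDEF did not pass. These are 2 higher and 2 lower of 8, beside 7.82% higher and 8.49% lower among all genes. None of the 8 reached a fold of 1.5, which 2.45% of all genes did. Libraries were separate between the groups for 4 of the 8 genes and for 43.2% of all genes. The median log2 change was 0.025 over the 8 genes and -0.0031 over all genes. Both comparisons use the same 0 h libraries, so the values at 12 h and 24 h against 0 h are not independent of each other.

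The third comparison set 24 h against 12 h, with no 0 h library in the contrast. SPDEF fell, and none of the other 7 genes passed. By edgeR none of the 8 was higher, where 1.12% of all genes were, and the count stayed at 0 at an unadjusted p under 0.05 and with DESeq2. Lower was 1 of 8, where 1.61% of all genes were, and with DESeq2 the count was 2, NCOR1 being the other. At a fold of 1.5 the share was 0.18% of all genes and none of the 8. FOXA1, NCOR1 and SPDEF, 3 of the 8 genes, had separate libraries, against 19.6% of all genes. The median log2 change was -0.0037 over the 8 genes and 0.0035 over all genes.

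**Figure D2:**
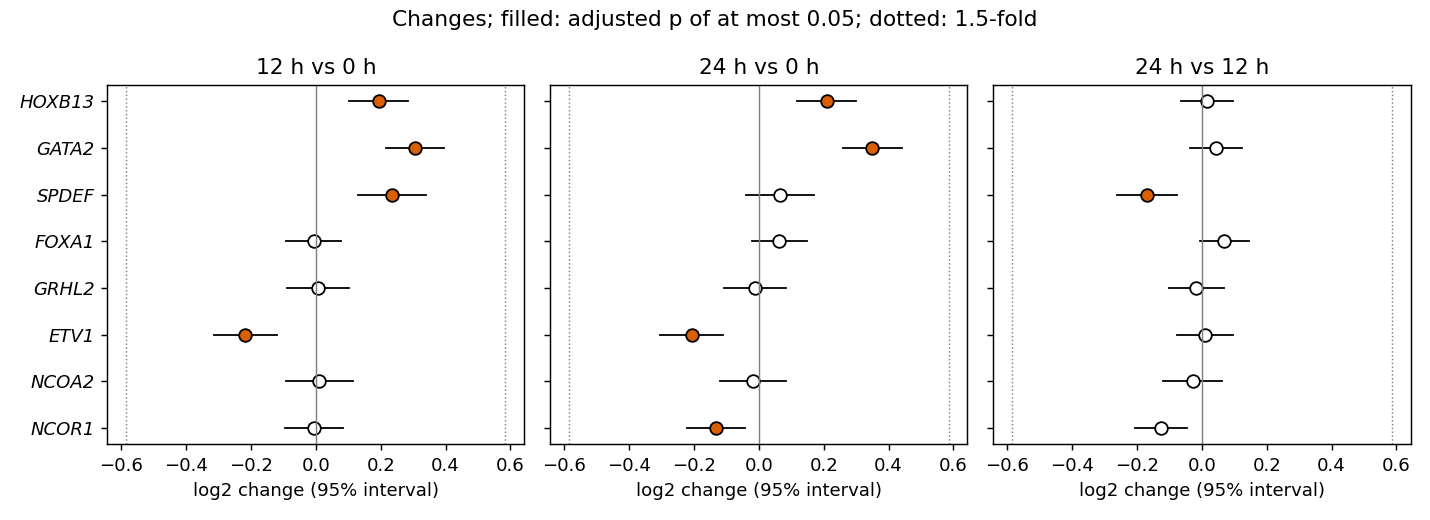
Log2 change of each gene (points) with its 95% interval (lines) in the 3 comparisons, filled where the adjusted p was at most 0.05, with dotted lines at a 1.5-fold change. All points lie inside the dotted lines, and GATA2 is the farthest from 0 in both comparisons with 0 h, at 0.31 and 0.35.

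Of the 8 genes, GATA2, SPDEF, ETV1 and HOXB13 passed at 12 h, and the RefSeq promoter set used here held no entry for HOXB13. For GATA2, SPDEF and ETV1, the 250 bases upstream of the farthest upstream RefSeq start are shown, written 5′ to 3′ (GRCh38.p14, all on the minus strand). Capitals mark AATAAA, a short motif of the kind bound by HOXB13.
GATA2, chr3:128493202-128493451: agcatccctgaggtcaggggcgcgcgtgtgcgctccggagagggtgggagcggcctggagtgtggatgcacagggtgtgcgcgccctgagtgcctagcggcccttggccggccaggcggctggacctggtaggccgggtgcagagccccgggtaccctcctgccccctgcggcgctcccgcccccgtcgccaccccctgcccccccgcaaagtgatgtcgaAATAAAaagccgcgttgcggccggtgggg
SPDEF, chr6:34556330-34556579: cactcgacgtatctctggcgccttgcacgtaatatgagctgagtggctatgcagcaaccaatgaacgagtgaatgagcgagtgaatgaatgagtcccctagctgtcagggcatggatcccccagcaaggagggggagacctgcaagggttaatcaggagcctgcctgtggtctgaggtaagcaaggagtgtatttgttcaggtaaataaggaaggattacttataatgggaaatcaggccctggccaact
ETV1, chr7:13991426-13991675: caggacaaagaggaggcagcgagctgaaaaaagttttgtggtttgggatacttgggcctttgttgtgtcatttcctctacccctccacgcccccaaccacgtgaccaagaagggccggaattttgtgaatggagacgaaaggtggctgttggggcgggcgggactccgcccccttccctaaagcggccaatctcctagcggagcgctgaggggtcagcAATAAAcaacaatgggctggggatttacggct

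The sequences were searched on both strands for 6 motifs, which do not contain one another. The HOXB13 motif AATAAA was found once in the GATA2 window and once in the ETV1 window, and it occurs in 16.0% of the 35116 RefSeq promoter windows of this length. The 5 other motifs had no match in the 3 windows. Among all windows, the forkhead motif spelled TGTTTAC was present in 2.98%. The motif of GATA2 and its relatives, AGATAA, was present in 9.17%. For the ETS family, CCGGAAG was found in 8.52% of the windows. For the grainyhead family of GRHL2, AACCGG was found in 5.99%. The androgen receptor half-site, AGAACA, was found in 12.4%. The windows differed in composition, with 72.8% G and C in that of GATA2, 56% in that of ETV1 and 50.8% in that of SPDEF, beside a median of 58% over all windows. These matches describe the letters only.

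GATA2 showed the largest change of the 8 genes. It lies at chr3:128479427-128493201 on the minus strand. The 0 h libraries had 222 and 233 CPM, the 12 h libraries 292, 278 and 273 CPM, and the 24 h libraries 290, 288 and 291 CPM. Every library with ASPN was above both 0 h libraries, and the 24 h libraries lay within the range of the 12 h libraries. The means were 227 ± 7.56 CPM (SD, n = 2) at 0 h, 281 ± 10.1 CPM (SD, n = 3) at 12 h and 290 ± 1.44 CPM (SD, n = 3) at 24 h. The log2 change was 0.31 at 12 h (SE 0.044, edgeR adjusted p = 1.268e-05) and 0.35 at 24 h (SE 0.044, edgeR adjusted p = 5.654e-07). Between 12 h and 24 h it moved by 0.043 (95% interval -0.037 to 0.12, edgeR adjusted p = 0.706). GATA2 passed against 0 h under each of the 16 alternatives, with adjusted p up to 0.0023 at 12 h and up to 0.000177 at 24 h. Its exons share 78 bases, 1.59% of their length, with GATA2-AS1 on the opposite strand. GATA2-AS1 had log2 changes of -0.057 at 12 h and -0.10 at 24 h, which did not pass (edgeR adjusted p = 0.565 and 0.192).

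HOXB13 rose less. This gene sits at chr17:48724763-48728750 on the minus strand, at the end of the HOXB cluster. Its levels were 393 and 435 CPM at 0 h, 465, 481 and 474 CPM at 12 h, and 486, 474 and 476 CPM at 24 h. Again all 6 libraries with ASPN were above both 0 h libraries, which were themselves far apart. The means were 414 ± 29.2 CPM (SD, n = 2) at 0 h, 473 ± 8.19 CPM (SD, n = 3) at 12 h and 478 ± 6.68 CPM (SD, n = 3) at 24 h. The log2 change was 0.19 at 12 h (SE 0.044, edgeR adjusted p = 0.003276) and 0.21 at 24 h (SE 0.044, edgeR adjusted p = 0.0009012). Between 12 h and 24 h it was 0.015 (95% interval -0.065 to 0.096, edgeR adjusted p = 0.919). Without 0 h replicate 1, the values were 0.12 at 12 h (edgeR adjusted p = 0.217) and 0.13 at 24 h (edgeR adjusted p = 0.101), so the call depended on the lower 0 h library.

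FOXA1, at chr14:37589552-37596059 on the minus strand, stayed within a narrow band. It had 530 and 501 CPM at 0 h, 508, 518 and 514 CPM at 12 h, and 530, 543 and 542 CPM at 24 h. The 0 h libraries enclosed the 12 h values, and the 24 h libraries were all above the 12 h libraries. Its log2 change was -0.0062 at 12 h (95% interval -0.091 to 0.078, edgeR adjusted p = 0.956), 0.063 at 24 h (-0.022 to 0.15, edgeR adjusted p = 0.358) and 0.069 from 12 h to 24 h (-0.0064 to 0.15, edgeR adjusted p = 0.428). A change of 1.5-fold, 0.58 on the log2 scale, lies outside each interval. Over a stretch of 355 bases its transcript is 91.6% identical to that of FOXA2, which is not in the table.

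GRHL2, on the plus strand of chromosome 8, varied least between groups. Its levels were 94.6 and 99.0 CPM at 0 h, 95.1, 97.3 and 99.0 CPM at 12 h, and 96.2, 96.9 and 94.8 CPM at 24 h. All 3 groups overlapped. Its log2 change was 0.0054 at 12 h (95% interval -0.090 to 0.10, edgeR adjusted p = 0.965) and -0.012 at 24 h (-0.11 to 0.083, edgeR adjusted p = 0.911). The later step, 24 h against 12 h, was -0.018 (-0.10 to 0.068, edgeR adjusted p = 0.910).

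**Figure D3:**
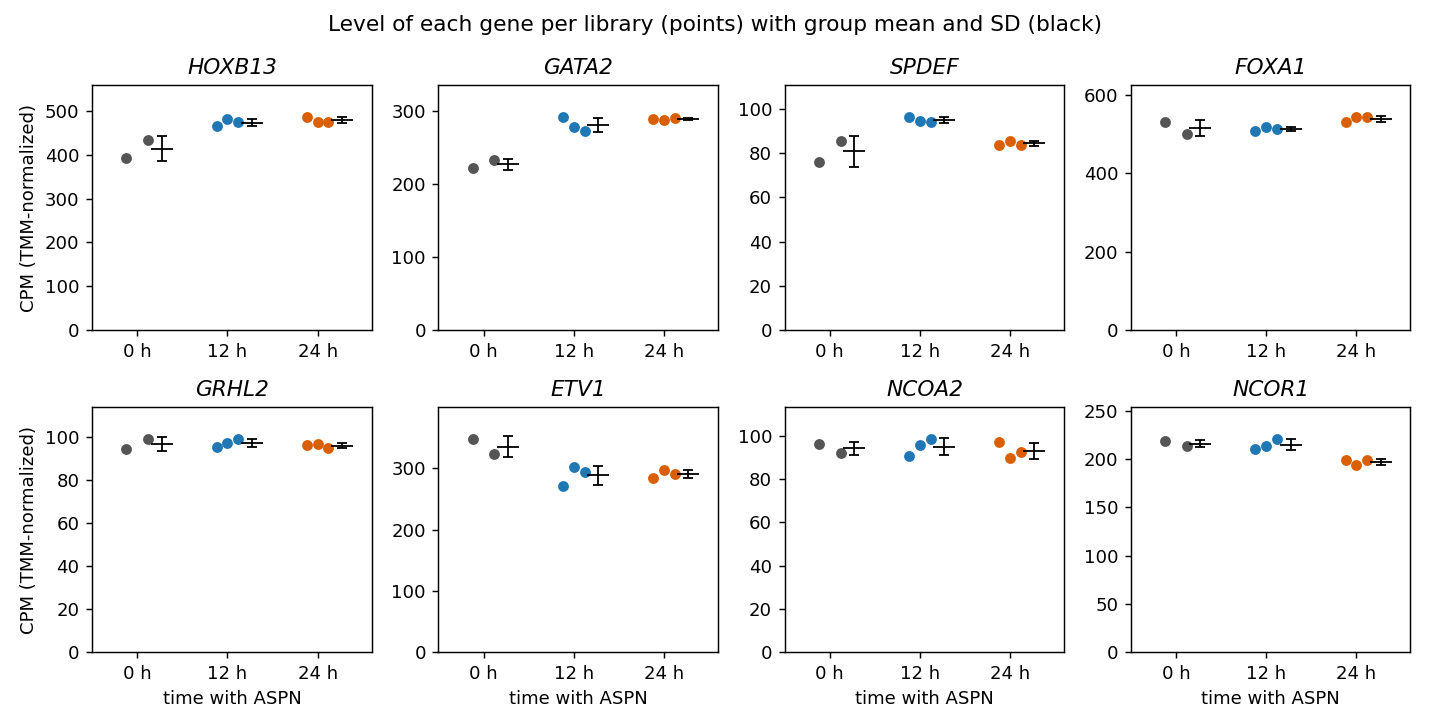
Level of each gene in each library (points, CPM after TMM scaling, axes starting at 0) with the group mean and SD (black) at 0 h (n = 2), 12 h (n = 3) and 24 h (n = 3) with ASPN. GATA2 and HOXB13 stand higher in all ASPN libraries, ETV1 stands lower, SPDEF peaks at 12 h with 94.9 CPM, and NCOR1 is lower at 24 h.

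Of the ETS factors, SPDEF was the only one of the 8 genes that passed in the third comparison. It is encoded at chr6:34537802-34556333 on the minus strand. It had 75.8 and 85.6 CPM at 0 h, 96.3, 94.3 and 94.1 CPM at 12 h, and 83.8, 85.6 and 83.8 CPM at 24 h. The 12 h libraries were above all others, and the 24 h libraries lay between the 0 h libraries or at the upper one. The means were 80.7 ± 6.89 CPM (SD, n = 2) at 0 h, 94.9 ± 1.21 CPM (SD, n = 3) at 12 h and 84.4 ± 1.06 CPM (SD, n = 3) at 24 h. The log2 change was 0.23 at 12 h (SE 0.051, edgeR adjusted p = 0.001973) and 0.065 at 24 h (95% interval -0.038 to 0.17, edgeR adjusted p = 0.453). SPDEF then fell from 12 h to 24 h by 0.17 on the log2 scale (SE 0.045, edgeR adjusted p = 0.03432). Without 0 h replicate 1 the change at 12 h was 0.15 (edgeR adjusted p = 0.182). The fall from 12 h to 24 h was lost without 12 h replicate 3 (edgeR adjusted p = 0.107) or without 24 h replicate 1 (0.159), 2 (0.105) or 3 (0.168), with a log2 change of -0.16 to -0.19 in these fits.

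ETV1 was the member that fell against 0 h at both times. In the reference it lies at chr7:13891229-13991425 on the minus strand, which need not be its place in this line. The 0 h libraries had 348 and 323 CPM, the 12 h libraries 271, 302 and 293 CPM, and the 24 h libraries 284, 298 and 290 CPM. All 6 libraries with ASPN were below both 0 h libraries, and 12 h and 24 h overlapped. The means were 335 ± 17.4 CPM (SD, n = 2) at 0 h, 288 ± 16.0 CPM (SD, n = 3) at 12 h and 291 ± 7.03 CPM (SD, n = 3) at 24 h. ETV1 changed by a log2 of -0.22 at 12 h (SE 0.047, edgeR adjusted p = 0.001994) and -0.21 at 24 h (SE 0.047, edgeR adjusted p = 0.001902). The change between the 2 later times was 0.010 (95% interval -0.076 to 0.097, edgeR adjusted p = 0.956). Without 0 h replicate 1, the values were -0.16 at both times (edgeR adjusted p = 0.122 at 12 h and 0.0871 at 24 h).

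Since ETV1 is known to sit beside FOXA1 in this line, the reference neighbors of both genes were examined. Around ETV1, 5 neighbors were tested. TMEM106B, a lysosomal membrane protein gene 1648 kb away, fell by 0.33 on the log2 scale at 12 h (edgeR adjusted p = 0.0002) and by 0.18 at 24 h (edgeR adjusted p = 0.0242), calls lost in 1 and 4 of 16 alternatives (adjusted p up to 0.0543 and 0.508). The nearest, DGKB, 153.6 kb away, ran from 13.8 to 18.1 CPM, with log2 changes of -0.23 and -0.20 that did not pass (edgeR adjusted p = 0.0699 and 0.0974). SCIN had 0.993, 0.819 and 0.877 CPM at 0, 12 and 24 h and AGMO 0.198, 0.0541 and 0.0882 CPM, and neither passed. Near FOXA1, 3 of the 5 neighbors in the table were tested, MIPOL1, TTC6 and SLC25A21, and 0 passed in any comparison by edgeR or DESeq2. At an unadjusted p under 0.05, MIPOL1 alone counted, as lower at 12 h and as higher from 12 h to 24 h. MIPOL1 had mean levels of 59.3, 53.7 and 59.0 CPM at 0, 12 and 24 h. TTC6, whose exons share 16 bases with those of FOXA1 on the opposite strand, had 49.9, 49.7 and 49.1 CPM. SLC25A21 had 3.94, 3.34 and 3.83 CPM. Over these 3 genes the median log2 change was -0.14 at 12 h, -0.025 at 24 h and 0.13 from 12 h to 24 h. Whether ETV1 changed differently from them was not tested.

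In the wider ETS family, SPDEF and ETV1 ranked 2 and 3 in level per length among 20 members, after EHF (388 TPM). The other PEA3 factors were scarce, with ETV5 at 0.483 TPM and ETV4 at 0.164 TPM, and ERG and FLI1 were at 0 in some libraries and at most 0.0369 TPM in any. Of the 18 other ETS genes, 16 were tested. ERF, an ETS repressor, was the one that rose against 0 h, by a log2 change of 0.30 at 12 h (edgeR adjusted p = 0.0008673) and 0.36 at 24 h (SE 0.061, edgeR adjusted p = 5.912e-05). ERF had 26.8 and 25.7 CPM at 0 h and between 30.6 and 33.8 CPM in the libraries with ASPN. ELF3, an epithelial ETS factor named after its value was seen, rose from 12 h to 24 h by 0.26 (edgeR adjusted p = 0.026), a call lost in 5 of 17 alternatives (adjusted p up to 0.158). By edgeR 0 of the 16 fell in any comparison, as with DESeq2, while at an unadjusted p under 0.05 1 was lower at 12 h, 2 were lower at 24 h and 0 from 12 h to 24 h. The list medians were -0.052 at 12 h, 0.033 at 24 h and 0.054 from 12 h to 24 h.

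The cofactors differed from each other. NCOA2, on the minus strand of chromosome 8, had 96.0 and 92.1 CPM at 0 h, 90.5, 95.4 and 98.4 CPM at 12 h, and 96.9, 89.7 and 92.3 CPM at 24 h. Its groups overlapped in every comparison. NCOA2 had a log2 change of 0.011 at 12 h (95% interval -0.091 to 0.11, edgeR adjusted p = 0.931), -0.017 at 24 h (-0.12 to 0.085, edgeR adjusted p = 0.881) and -0.028 from 12 h to 24 h (-0.12 to 0.063, edgeR adjusted p = 0.855). Of the other p160 coactivators, NCOA1 had mean levels of 27.8, 28.9 and 28.2 TPM at 0, 12 and 24 h and NCOA3 had 13.4, 12.1 and 12.2 TPM. None of the p160 genes passed in any comparison.

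NCOR1, at chr17:16029157-16218185 on the minus strand, changed late. Its levels were 218 and 213 CPM at 0 h, 210, 214 and 221 CPM at 12 h, and 198, 194 and 198 CPM at 24 h. All 24 h libraries were below all others, whereas 0 h and 12 h overlapped. The means were 216 ± 3.55 CPM (SD, n = 2) at 0 h, 215 ± 5.46 CPM (SD, n = 3) at 12 h and 197 ± 2.78 CPM (SD, n = 3) at 24 h. NCOR1 had a log2 change of -0.0061 at 12 h (95% interval -0.095 to 0.083, edgeR adjusted p = 0.959) and -0.13 at 24 h (SE 0.043, edgeR adjusted p = 0.03387). Against 12 h, the 24 h value was -0.13 (SE 0.039, edgeR adjusted p = 0.0790). The fall at 24 h did not pass without either 0 h library (edgeR adjusted p = 0.19 without replicate 1 and 0.0543 without the unnumbered one), without 12 h replicate 3 (0.0554), or without 24 h replicate 1 (0.0819), 2 (0.147) or 3 (0.0817), and it did not pass without the filter on low counts (0.0825) or with the number in the column names as a replicate block (0.119). The log2 change itself ran from -0.093 to -0.14 under all 16 alternatives. NCOR1 shares 2.18% of its exon bases with TTC19 and 2.06% with PIGL on the opposite strand. TTC19 had 104, 101 and 105 CPM at 0, 12 and 24 h and did not pass.

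**Figure D4:**
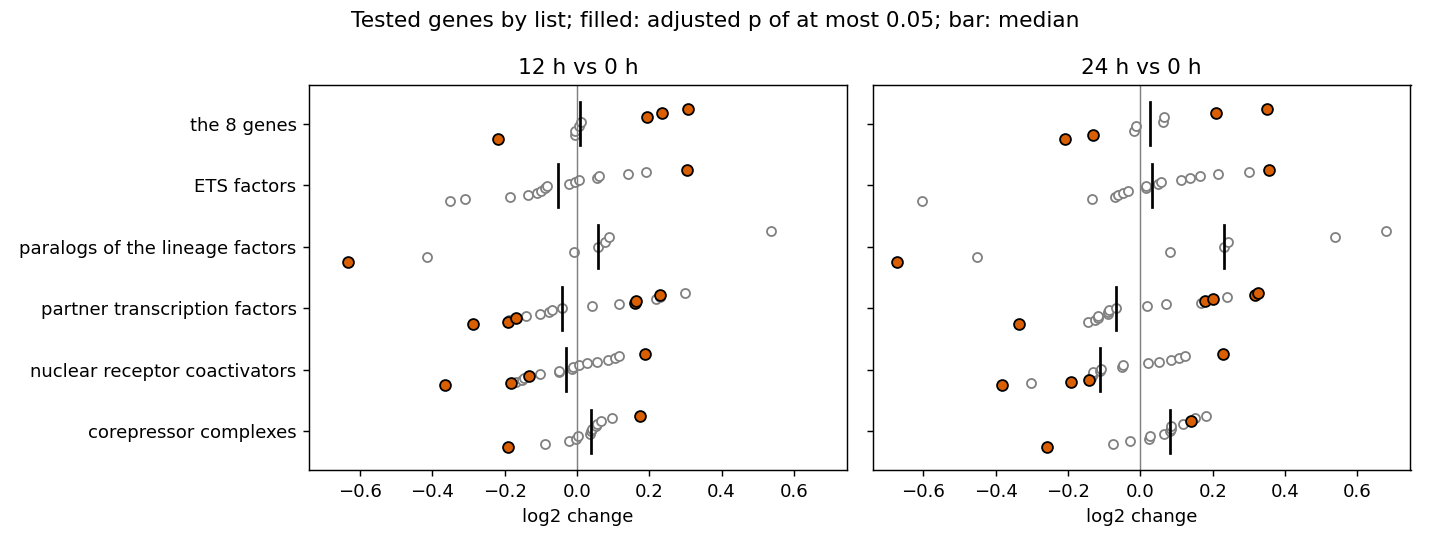
Log2 changes at 12 h and 24 h against 0 h for the 8 genes and for the tested genes of 5 related lists, filled where the adjusted p was at most 0.05, with a bar at each median. GATA2 (0.31 and 0.35) lies at the right end of the 8 genes, and the lists hold passing genes on both sides of 0, with the lineage paralog HOXB9 at -0.63 and -0.67.

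Genes that work with the 8 moved in both directions. Of 18 other nuclear receptor coactivators, 1 was higher and 3 were lower at 12 h and again at 24 h, and 1 was lower from 12 h to 24 h. NCOA7 had 77.6 ± 3.79 CPM (SD, n = 2) before ASPN and 59.6 ± 2.45 CPM (SD, n = 3) after 24 h, and fell by 0.38 on the log2 scale (SE 0.053, edgeR adjusted p = 2.311e-06). PELP1, a scaffold of steroid receptor complexes, rose by 0.23 (SE 0.052, edgeR adjusted p = 0.001814). NCOA4 (-0.13 at 12 h), NCOA6 (-0.14 at 24 h) and EP300 (-0.20 from 12 h to 24 h) also passed, and were named after their values were seen. NCOA4 lost its call in 13 of 16 alternatives (edgeR adjusted p up to 0.333), NCOA6 in 8 of 16 (up to 0.142) and EP300 in 3 of 17 (up to 0.211). PELP1 at 24 h lost its call in 1 of 16 (edgeR adjusted p = 0.185), and NCOA7 at 24 h in 0 of 16. The list median was -0.031 at 12 h, -0.11 at 24 h and -0.0028 from 12 h to 24 h.

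Around NCOR1, 13 genes of corepressor complexes were tested, with 1 higher and 1 lower in each comparison with 0 h. From 12 h to 24 h the count was 0 by edgeR and by DESeq2, and at an unadjusted p under 0.05 4 were higher and 2 lower. TBL1X, a core subunit of the NCOR1 complex, fell by 0.19 on the log2 scale at 12 h (edgeR adjusted p = 0.003986) and by 0.26 at 24 h (SE 0.045, edgeR adjusted p = 6.939e-05). HDAC1, a histone deacetylase, rose by 0.14 at 24 h (SE 0.043, edgeR adjusted p = 0.0214), a call lost in 5 of 16 alternatives (adjusted p up to 0.144). The call of TBL1X was lost in 1 of 16 at 12 h (edgeR adjusted p = 0.106) and in 0 of 16 at 24 h. HDAC3, the deacetylase of the NCOR1 complex, did not pass in any comparison. The list medians were 0.040, 0.080 and 0.022 in the order of the comparisons.

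Of 18 partner transcription factors, 17 were in the table and tested. At 12 h, 3 were higher and 3 lower. At 24 h, 4 were higher and 1 lower, and from 12 h to 24 h 1 was lower. TLE3, a Groucho corepressor that forkhead factors recruit, stood at 214 ± 10.2 CPM (SD, n = 2) before ASPN and 268 ± 3.57 CPM (SD, n = 3) after 24 h, and rose by 0.32 on the log2 scale (SE 0.044, edgeR adjusted p = 1.968e-06). XBP1, a factor of the secretory and unfolded protein response, fell by 0.34 (SE 0.046, edgeR adjusted p = 2.029e-06). NFIX, of a nuclear factor I family that binds near FOXA1, rose by 0.20 (SE 0.041, edgeR adjusted p = 0.0005951). Also past the test were SOX9 (0.32) and NFIC (0.18) at 24 h, TLE1 (-0.17) and CREB3L4 (0.16) at 12 h, and CREB3L4 again from 12 h to 24 h (-0.25), all named after their values were seen. TLE1 lost its call in 11 of 16 alternatives (edgeR adjusted p up to 0.543) and CREB3L4 at 12 h in 7 of 16 (up to 0.415), while CREB3L4 from 12 h to 24 h passed in all 17. SOX9 lost its call in 3 of 16 (edgeR adjusted p up to 0.0913) and NFIC in 1 of 16 (0.0921). The medians were -0.041, -0.068 and 0.039.

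Paralogs of the lineage factors were low. Of 15 in the table, 7 were tested and 1 passed. HOXB9, a neighbor of HOXB13 in the same cluster, had 2.96 and 3.59 CPM at 0 h, 2.75, 1.81 and 1.80 CPM at 12 h, and 2.11, 1.79 and 2.27 CPM at 24 h. It fell by 0.63 on the log2 scale at 12 h (SE 0.18, edgeR adjusted p = 0.01939) and by 0.67 at 24 h (SE 0.18, edgeR adjusted p = 0.009013). The call was lost in 5 of 16 alternatives at 12 h (edgeR adjusted p up to 0.204) and in 2 of 16 at 24 h (up to 0.142). GRHL1 had 15.1, 16.0 and 16.0 CPM at the 3 times and did not pass, and GATA3 had at most 0.147 TPM in any library. The list medians were 0.059, 0.23 and 0.14.

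The genes whose log2 CPM most resembled that of a member over the 8 libraries were named for the 3 members with the smallest p at 24 h, by Pearson r among 11583 protein-coding genes. For GATA2 these were SLC2A4RG (r = 0.995), MEX3A (r = 0.994) and HSPB1 (r = 0.992). HOXB13 was most like CDC37 (r = 0.991), C1orf116 (r = 0.990) and PTPN3 (r = 0.988), and ETV1 was most like RNF14 (r = 0.991), SHOC2 (r = 0.991) and APPBP2 (r = 0.990). The libraries share time points and depth, and the values describe likeness only. HSPB1, a small heat shock protein, had a log2 change of 0.37 at 12 h and 0.44 at 24 h, and CDC37 had 0.12 and 0.13. SHOC2, a scaffold of RAS signaling, had -0.33 and -0.29, and RNF14 had -0.18 at both times. These genes were picked for likeness in the same libraries to members picked by p. Their changes follow from that choice, add no evidence and are given without p.

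Base composition moved with the same comparisons. Over 11298 genes, the log2 change and the G and C content of the longest transcript had a Spearman correlation across genes of 0.517 at 12 h, 0.374 at 24 h and -0.136 from 12 h to 24 h, and genes are not independent replicates. The 3 genes that rose at 12 h have the highest contents of the 8, with 64.6% for SPDEF, 60.4% for GATA2 and 57.7% for HOXB13. ETV1, which fell, has the lowest, at 37.1%. FOXA1 has 50.4%, GRHL2 49.8%, NCOR1 45.2% and NCOA2 43.4%. Genes with at least 60% had a median log2 change of 0.11 at 12 h and 0.12 at 24 h, and those under 40% had -0.11 and -0.074.

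After removal of the trend with G and C content and length, an alternative added after the data were seen, the same genes passed against 0 h, with smaller changes. At 12 h, the log2 change was 0.21 for GATA2 (edgeR adjusted p = 1.75e-05), 0.12 for HOXB13 (edgeR adjusted p = 0.0158), 0.12 for SPDEF (edgeR adjusted p = 0.0398) and -0.096 for ETV1 (edgeR adjusted p = 0.0479). At 24 h it was 0.25 for GATA2 (edgeR adjusted p = 3.64e-07), 0.14 for HOXB13 (edgeR adjusted p = 0.00296), -0.12 for ETV1 (edgeR adjusted p = 0.00534) and -0.093 for NCOR1 (edgeR adjusted p = 0.0386). For 24 h against 12 h, SPDEF was at -0.18 (edgeR adjusted p = 0.00103) and NCOR1 at -0.11 (edgeR adjusted p = 0.0233). Of the related genes, TMEM106B at 24 h (edgeR adjusted p = 0.333), NFIX at 12 and 24 h (0.359 and 0.0713), and XBP1 at 12 h (0.0722) no longer passed. The part of base composition in these changes was not tested beyond this correction.

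Luminal markers moved as well. Of the 9, 3 were higher at 12 h (KLK3, KLK2 and TMPRSS2, all androgen-responsive), and at 24 h 5 were higher (the same 3 with FOLH1 and KRT8) and 1 was lower (KRT18). From 12 h to 24 h, FOLH1 rose by 0.21 on the log2 scale and KLK3 fell by 0.18 (edgeR adjusted p = 0.0006772 and 0.01288). KLK3 had its highest group mean at 12 h, like SPDEF, with 965, 1355 and 1194 CPM at 0, 12 and 24 h. Of the other markers, VWF was lower at 24 h (log2 change -0.38, edgeR adjusted p = 0.001752), as was SYP (-0.48, edgeR adjusted p = 0.04808), although DESeq2 did not call SYP. The part of such shifts in the changes of the 8 genes was not tested.

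**Figure D5:**
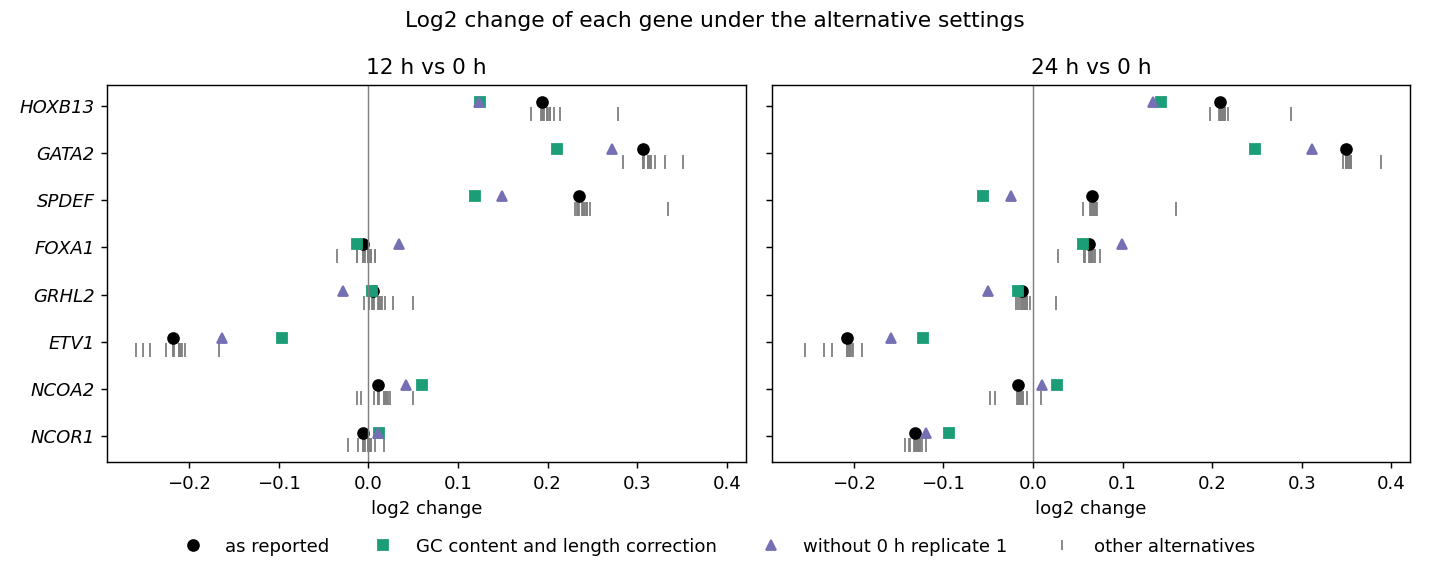
Log2 change of each gene against 0 h as reported (circles), after correction for G and C content and length (squares), without 0 h replicate 1 (triangles) and under the other alternatives (ticks). GATA2 stays at or above 0.21 at 12 h and 0.25 at 24 h, while HOXB13, SPDEF and ETV1 lie nearer 0 as squares and as triangles.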

How the data were processed

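A single table of raw counts was deposited, for which the authors trimmed reads with Cutadapt, aligned them to GRCh38.p13 with STAR and counted GENCODE v38 genes with featureCounts. Strand, read-pair and multi-mapping options are not given in the sources used here, so overlapping and antisense genes can share reads. The labels call the libraries biological replicates, cells having been plated in separate wells, and p values measure the spread between these wells.

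Columns were mapped by time and number, and 0 columns were left unused. Counts were fitted with edgeR 4.0.16 (R 4.3.3, TMM, filterByExpr, robust glmQLFit and glmQLFTest, 1 coefficient per time point, all 8 libraries), with Benjamini-Hochberg adjustment over the 21071 genes tested. The biological coefficient of variation was 5.59%. Replicate pairs differed by more than sampling noise (chi-square per degree of freedom 5.10 to 13.8), and each library was counted once. Intervals cover 95%. A count of 0 allows up to 3 counts, 0.0309 to 0.0409 CPM. Such limits cover counting error only. Sequences came from RefSeq. The procedure was run on simulated data. These used the spread between libraries fitted here and no trend with G and C content, so they cannot test either. Alternatives included DESeq2 1.42.0.

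The 8 genes and the related lists were chosen with earlier results of these data known. Named from each list were up to 3 genes with the smallest p at 24 h among those with an adjusted p of at most 0.05, all tested genome neighbors, and, for the 3 members with the smallest p, the 3 most similar protein-coding genes (mean normalized count of 100 or more). Some genes named by this rule are not reported here.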

Additional observations from a re-analysis of the deposited data

Results flagged for a closer look

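SPDEF changed differently at the 2 times. Its log2 change from 0 h was 0.23 at 12 h and 0.065 at 24 h, and the difference between these, tested directly as 24 h against 12 h, was -0.17 (SE 0.045, edgeR adjusted p = 0.03432), with all 3 libraries at 24 h below all 3 at 12 h. Over 17 alternatives the difference ran from -0.16 to -0.19, with adjusted p from 0.000475 to 0.168. It did not pass when 12 h replicate 3 or any single 24 h library was left out.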

How the results depend on the processing

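Of 392 values of the 8 genes recomputed under alternatives, 335 kept their direction and side of the threshold, 17 lost the call, 10 gained one and 30 changed sign. Every sign change was of a value that had not passed. The number of genes past the test was 4 at 12 h, 4 at 24 h and 1 from 12 h to 24 h. It was 0 in each comparison with a fold of at least 1.5 required. Leaving out 1 library gave 1 to 4 genes at 12 h, 1 to 4 at 24 h and 0 to 2 from 12 h to 24 h. Without 0 h replicate 1, GATA2 alone was left against 0 h at both times. In that fit, as wherever 1 library of 0 h remained, the lone library is assumed to vary like the other groups. Without the unnumbered 0 h library, SPDEF passed at 24 h (0.16, edgeR adjusted p = 0.0499). From 12 h to 24 h the count was 2, with NCOR1 beside SPDEF, for a mean of at least 100 normalized counts, for DESeq2, for a fit to the 2 time points alone, for the replicate block, for the G and C correction and for that correction with the block. Deviations of same-numbered 12 h and 24 h libraries had r of 0.112, 0.0373 and 0.0251, all positive. Replicates 1 and 3 at 12 h correlated best with the 24 h library of the same number. By contrast, 12 h replicate 2 correlated best with 24 h replicate 3 (0.0543). Deviations from a group mean cancel out within the group, so these r cannot settle whether the numbers pair the 12 h and 24 h libraries. With the replicate block, NCOR1 was at -0.13 (edgeR adjusted p = 0.0344) and SPDEF at -0.17 (edgeR adjusted p = 0.00776). The 0 h columns are numbered 1 and 3, and a replicate block by column number over all 8 libraries, chosen after seeing the data, gave 4 genes at 12 h and 3 at 24 h, where NCOR1 was lost (-0.12, edgeR adjusted p = 0.119). The 0 h libraries and the later libraries with the same column number had deviations with r of -0.166 to -0.0729. With 2 libraries at 0 h, their deviations from the group mean mirror each other, so these values cannot settle whether the numbers pair the libraries. The related lists held 32 calls in the 3 comparisons, 50 with the G and C correction, and 15 to 40 when 1 library was left out (15 without 0 h replicate 1, 40 without the unnumbered one). Sign changes at 12 h were those of FOXA1 (0.0074 with upper-quartile scaling, 0.0032 without a filter and 0.0029 with the stricter filter) and NCOR1 (0.0075, 0.0034 and 0.0030 in the same order, 3.339e-05 with DESeq2, 0.0013 with the replicate block and 0.012 with the G and C correction). At 24 h, the G and C correction gave 0.027 for NCOA2 and -0.056 for SPDEF. From 12 h to 24 h it gave -0.027 for ETV1, also with the replicate block. With 1 library left out, log2 changes ran from -0.035 to 0.035 for FOXA1, from -0.028 to 0.050 for GRHL2, from -0.013 to 0.050 for NCOA2 and from -0.022 to 0.017 for NCOR1 at 12 h, from -0.048 to 0.0097 for NCOA2, from -0.024 to 0.16 for SPDEF and from -0.050 to 0.026 for GRHL2 at 24 h, and from -0.0031 to 0.028 for HOXB13 and from -0.039 to 0.044 for ETV1 between 12 h and 24 h. The cause of these shifts was not tested. No scaling moved the median of all genes by as much as 0.1 (log2). Each scaling assumes that most genes do not change, so this cannot show whether total RNA shifted. The 2 libraries at 0 h limit every comparison with 0 h.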
